A study of Homo sapiens with 8 samples.

Results

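Thyroid hormone receptors, their retinoid X receptor partners and a thyroid hormone target gene were followed as 6 genes in RNA-seq tables of 4 human lines of thyroid cancer, 8 libraries in all. The genes were chosen by symbol: THRA and THRB, the receptors; RXRA, RXRB and RXRG, the partners; and KLF9, the target. The tables held 58884 gene identifiers, and all 6 genes were found in each table. At least 1 read was recorded for 5 of the 6, and the same 5 had a mean of at least 1 TPM over the 8 libraries, TPM being a transcript level per exon length scaled to a library sum of 1000000. RXRG had no read in any library. In 8505C and CAL-62, lines from anaplastic thyroid carcinomas, a library made after an siRNA against NR1D1 (labelled NR1D1 knockdown) was set against a library made after a control siRNA (labelled WT). In TPC-1, from a papillary carcinoma, and FTC-133, from a follicular carcinoma, a library with an NR1D1 vector (labelled NR1D1 overexpression) was set against a library with an empty vector (labelled WT). Each group had 1 library and each approach was used in its own pair of lines, so siRNA and vector cannot be told apart from the lines that received them. The siRNA sequence, the exons the vector carries, the time of harvest and the thyroid hormone in the medium are among the details not given in the sources used here.

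Thyroid hormone receptors are nuclear receptors that sit on DNA as heterodimers with a retinoid X receptor. Without hormone they recruit corepressors such as NCOR1, and with triiodothyronine they exchange these for coactivators, so that target genes are silenced or activated according to hormone. THRA gives receptor alpha 1 and a splice form, alpha 2, that does not bind hormone, while THRB gives the beta receptors and is often reduced in thyroid cancers. RXRs are shared with the retinoic acid, vitamin D, PPAR and LXR receptors. KLF9 encodes a zinc finger factor that is induced by thyroid hormone in many tissues and by glucocorticoids. NR1D1, the gene that was lowered or raised, encodes REV-ERB alpha, a heme-binding repressor of the circadian clock, and lies on the opposite strand to THRA with overlapping 3' ends.

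Promoter windows were read for the genes whose levels stand apart below: KLF9, which was higher in the treated library of every line, THRB, which differed most in a single line, and RXRG, which had no reads. Each window runs from 250 bases before to 50 bases after a RefSeq start on GRCh38.p14 and is printed 5' to 3' on the gene's strand. Capitals mark GGTCA, the core shared by nuclear receptor binding sites, on either strand in KLF9 and RXRG, and GGGCGG, the core of SP and KLF family sites, on either strand in THRB. A match is a stretch of letters and not a measured binding site.
KLF9, chr9:70414608-70414907, minus strand: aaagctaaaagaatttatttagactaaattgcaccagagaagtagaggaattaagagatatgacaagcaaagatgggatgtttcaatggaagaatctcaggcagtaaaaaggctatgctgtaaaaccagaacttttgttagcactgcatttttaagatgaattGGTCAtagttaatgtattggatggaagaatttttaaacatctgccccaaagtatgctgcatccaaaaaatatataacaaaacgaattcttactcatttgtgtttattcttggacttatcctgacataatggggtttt
THRB start 1, chr3:24495659-24495958, minus strand: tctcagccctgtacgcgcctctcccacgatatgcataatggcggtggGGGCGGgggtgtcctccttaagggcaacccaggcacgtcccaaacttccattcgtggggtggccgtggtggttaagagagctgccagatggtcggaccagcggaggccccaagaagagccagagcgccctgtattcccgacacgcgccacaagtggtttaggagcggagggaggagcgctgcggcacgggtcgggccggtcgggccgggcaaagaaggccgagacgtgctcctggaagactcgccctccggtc
THRB start 2, chr3:24494801-24495100, minus strand: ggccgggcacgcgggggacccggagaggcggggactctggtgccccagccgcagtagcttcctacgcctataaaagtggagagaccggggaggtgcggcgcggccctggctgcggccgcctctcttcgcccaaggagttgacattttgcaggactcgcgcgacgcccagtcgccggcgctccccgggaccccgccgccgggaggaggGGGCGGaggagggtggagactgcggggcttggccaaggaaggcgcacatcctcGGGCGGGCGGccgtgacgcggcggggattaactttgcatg
RXRG, chr1:165445077-165445376, minus strand: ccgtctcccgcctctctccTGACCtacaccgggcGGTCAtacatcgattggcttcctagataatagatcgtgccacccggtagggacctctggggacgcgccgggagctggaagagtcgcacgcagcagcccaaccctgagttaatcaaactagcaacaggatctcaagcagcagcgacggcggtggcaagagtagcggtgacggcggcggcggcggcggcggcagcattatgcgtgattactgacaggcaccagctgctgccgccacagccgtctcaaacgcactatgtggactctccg

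The KLF9 window was poor in G and C at 32.7%, and 2.6% of 35116 RefSeq windows of the same length were as low or lower. The THRB windows had 65.7% and 72.0% G and C and the RXRG window 62.0%, against a median of 58.7% over all windows. Of the 9 windows of the 6 genes, those of THRA (86.3%) and of the first RXRA start (84.0%) were the richest in G and C. GGGCGG stood 9 times in the THRA window and 6 times in the first RXRA window, and 45.0% of all windows held it at least once. The KLF9 window held no GGGCGG and a single GGTCA, 87 bases before the start. GGTCA was present in 37.4% of all windows. The longer AGGTCA, which contains GGTCA, was found in the RXRG window alone among the 9 and in 13.8% of all windows.

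Recovered read totals ran from 12.86 to 22.54 in the treated libraries and from 14.9 to 23.18 in the control libraries, in units of 1e6 reads. Members were covered by whole reads, so each level is given with its reads, and the 95% intervals are exact and cover counting error only. Genes of the mitochondrial genome took 67.85% of TPM in CAL-62 after NR1D1 siRNA and 57.22% after control siRNA, against 15.68% to 29.28% in the other 6 libraries. The median gene of CAL-62 had a log2 ratio of -0.28, against -0.02 to 0.05 in the other lines. Of 11 thyroid follicular cell markers 4 had a mean of at least 1 TPM. IYD was at 0 in all libraries and SLC5A5, the iodide transporter, reached at most 0.0463 TPM. PAX8, a thyroid transcription factor, was 124.5 TPM with the NR1D1 vector and 78.9 TPM with the empty vector in FTC-133. In TPC-1 PAX8 was 315.6 TPM with the NR1D1 vector and 330.1 TPM with the empty vector. In CAL-62 PAX8 was 90.3 TPM after NR1D1 siRNA and 53.75 TPM after control siRNA. In 8505C PAX8 was 0.501 TPM after NR1D1 siRNA and 0.503 TPM after control siRNA. NKX2-1, another such factor, had a different order of lines and was named after its values were seen. In 8505C NKX2-1 was 100.3 TPM after NR1D1 siRNA and 63.4 TPM after control siRNA, and in CAL-62 and TPC-1 it was at 0. In FTC-133 NKX2-1 was 22.0 TPM with the NR1D1 vector and 14.2 TPM with the empty vector. Some markers of other cell types were well above 1 TPM. Among 5 endothelial markers CDH5 reached 139.6 TPM after NR1D1 siRNA and 46.8 TPM after control siRNA in 8505C, among 6 immune markers CD14 reached 85.2 TPM after NR1D1 siRNA and 22.4 TPM after control siRNA in 8505C, and among 6 fibroblast markers POSTN reached 161.5 TPM with the NR1D1 vector and 58.8 TPM with the empty vector in FTC-133. In that line LUM was also higher, at 65.7 TPM with the NR1D1 vector and 26.8 TPM with the empty vector, and FAP was lower, at 9.62 TPM with the NR1D1 vector and 20.8 TPM with the empty vector. POSTN and FAP were named after their values were seen. The immune marker PTPRC stayed at or under 0.0560 TPM in all libraries. The summed fibroblast markers ran from 0.1 to 238 TPM in treated libraries and from 0.0489 to 111 TPM in controls, the endothelial from 0.716 to 159 TPM in treated libraries and from 0.441 to 58.7 TPM in controls, and the immune from 0.207 to 85.7 TPM in treated libraries and from 0.34 to 22.9 TPM in controls. Their part in the differences below was not tested.

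NR1D1 itself was lower after its siRNA and slightly higher with its vector. NR1D1 was 11.2 TPM (152 reads) after NR1D1 siRNA and 18.2 TPM (207 reads) after control siRNA in 8505C (ratio 0.616, 95% interval 0.497 to 0.764). CAL-62 had 10.1 TPM (156 reads) after NR1D1 siRNA and 22.0 TPM (415 reads) after control siRNA (ratio 0.462, 0.382 to 0.556). After scaling by the trimmed mean of log ratios the CAL-62 ratio was 0.6245 (0.5162 to 0.7525) and that of 8505C 0.6056 (0.4879 to 0.7502). TPC-1 had 208.7 TPM with the NR1D1 vector and 190 TPM with the empty vector (ratio 1.10, 1.04 to 1.16), and FTC-133 had 136.9 TPM with the NR1D1 vector and 105.4 TPM with the empty vector (ratio 1.30, 1.20 to 1.40). The vector lines thus held more NR1D1 RNA with an empty vector than the siRNA lines with a control siRNA.

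**Figure D1:**
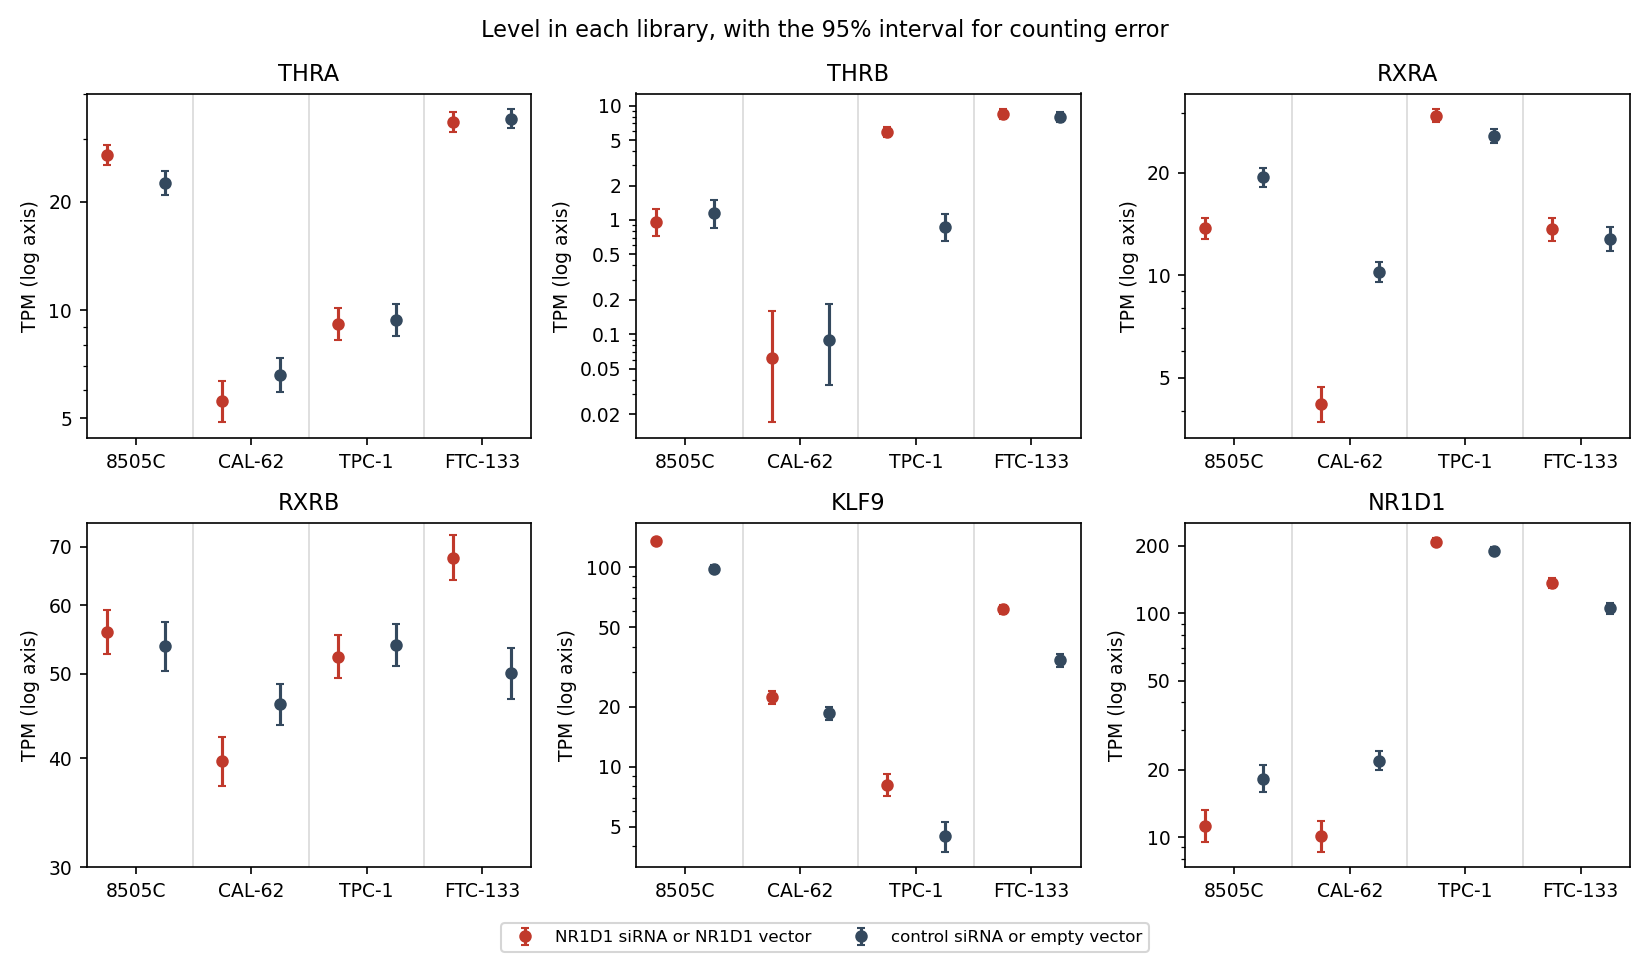
Level of 5 members and of NR1D1 in each of the 8 libraries, in TPM on a log axis whose range differs between panels, with exact 95% intervals for counting error. Treated libraries are red and stand left of their dark control library within each cell line. KLF9 is higher in the treated library of each line, and THRB is far higher with the NR1D1 vector in TPC-1.

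In control libraries THRB and KLF9 varied most between lines and RXRB least. KLF9 was 98.5 TPM in 8505C, 34.1 TPM in FTC-133, 18.5 TPM in CAL-62 and 4.48 TPM in TPC-1, a 22.0-fold range (95% interval 18.5 to 26.3) in which each neighbouring pair differed beyond counting error. THRB was 7.94 TPM in FTC-133, 1.14 TPM in 8505C, 0.871 TPM in TPC-1 and 0.0889 TPM in CAL-62. THRB in CAL-62 rested on 7 reads, and the 8505C and TPC-1 levels did not differ beyond counting error (ratio 1.31, 0.885 to 1.94). FTC-133 had 89.4-fold more THRB than CAL-62 (42.9 to 223.8), or 46.2-fold with mitochondrial genes removed before rescaling.

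THRA, the more abundant receptor gene in every library, was 34.1 TPM in FTC-133, 22.6 TPM in 8505C, 9.41 TPM in TPC-1 and 6.60 TPM in CAL-62 controls. RXRA was 25.6 TPM in TPC-1, 19.4 TPM in 8505C, 12.8 TPM in FTC-133 and 10.2 TPM in CAL-62 controls. The neighbours in both orders differed beyond counting error. RXRB was the most even member, at 54.0 TPM in TPC-1, 53.8 TPM in 8505C, 50.1 TPM in FTC-133 and 46.2 TPM in CAL-62, with no neighbouring pair apart beyond counting error and a ratio of 1.17 (1.08 to 1.27) between the ends. The tables were normalized separately, so these orders are a description. With mitochondrial genes removed before rescaling, the ratio of TPC-1 to CAL-62 became 0.738 for THRA, that of FTC-133 to CAL-62 became 0.647 for RXRA, 0.562 for RXRB and 0.954 for KLF9, so CAL-62 no longer stood below these lines.

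THRA differed little between the libraries of a line. THRA was 27.1 TPM (969 reads) after NR1D1 siRNA and 22.6 TPM (680 reads) after control siRNA in 8505C (ratio 1.20, 95% interval 1.08 to 1.32). CAL-62 had 5.58 TPM (227 reads) after NR1D1 siRNA and 6.60 TPM (330 reads) after control siRNA. That ratio of 0.845 (0.710 to 1.004) became 1.14 (0.961 to 1.36) after scaling by the trimmed mean of log ratios. TPC-1 had 9.17 TPM (375 reads) with the NR1D1 vector and 9.41 TPM (384 reads) with the empty vector (ratio 0.975, 0.843 to 1.13), and FTC-133 had 33.4 TPM (957 reads) with the NR1D1 vector and 34.1 TPM (1027 reads) with the empty vector (ratio 0.980, 0.897 to 1.07). Counting error alone thus spanned a ratio of 1 in 3 of the 4 lines. In 8505C, after NR1D1 siRNA, THRA was higher while NR1D1 was lower.

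THRA lies on chromosome 17 at 40058290 to 40093867 on the plus strand of GRCh38 and NR1D1 at 40092787 to 40100725 on the minus strand, in GENCODE 29. Their exons share 263 bases, 40093020 to 40093282, which is 3.78% of the exon bases of THRA and 9.49% of those of NR1D1. Of 10 THRA transcripts 3 contain shared bases. In THRA-201 and THRA-202, with 1470 coding bases each, all 263 shared bases are coding, and THRA-209 holds 146. THRA-203 and THRA-204, with the shorter reading frame of 1230 coding bases, hold none. Whether reads were counted by strand is not given in the sources used here, so reads in the shared stretch cannot be assigned, and the gene tables do not separate the THRA splice forms. NR1D1 stood at 22.8 times THRA with the NR1D1 vector and 20.2 times with the empty vector in TPC-1, the highest such ratios of the 4 lines, and at 0.415 times after NR1D1 siRNA and 0.806 times after control siRNA in 8505C.

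THRB was the member with the largest difference in any line, and that difference was in TPC-1. THRB was 5.87 TPM (378 reads) with the NR1D1 vector in TPC-1, against 0.871 TPM (56 reads) with the empty vector (ratio 6.74, 95% interval 5.08 to 9.09). FTC-133 had 8.42 TPM (380 reads) with the NR1D1 vector and 7.94 TPM (377 reads) with the empty vector (ratio 1.06, 0.917 to 1.23). The TPC-1 level with the NR1D1 vector stayed below both FTC-133 levels, and the intervals of both vector lines' ratios did not overlap.

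After siRNA, THRB was near its control level where it could be measured. THRB was 0.957 TPM (54 reads) after NR1D1 siRNA and 1.14 TPM (54 reads) after control siRNA in 8505C (ratio 0.839, 0.565 to 1.25). CAL-62 had 0.0624 TPM (4 reads) after NR1D1 siRNA and 0.0889 TPM (7 reads) after control siRNA (ratio 0.702, 0.151 to 2.76), so a difference within that interval was not detectable at this depth. On the log2(TPM + 1) scale the TPC-1 difference was 1.88, and 283 genes of that line, 1.75%, had a difference as large or larger. THRB made up 39.0% of the summed THRA and THRB level with the NR1D1 vector in TPC-1, against 8.47% with the empty vector. In FTC-133 that share was 20.1% with the NR1D1 vector and 18.9% with the empty vector. The THRB gene spans 24117153 to 24495756 on the minus strand of chromosome 3, and the gene tables do not say which of its starts was used.

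**Figure D2:**
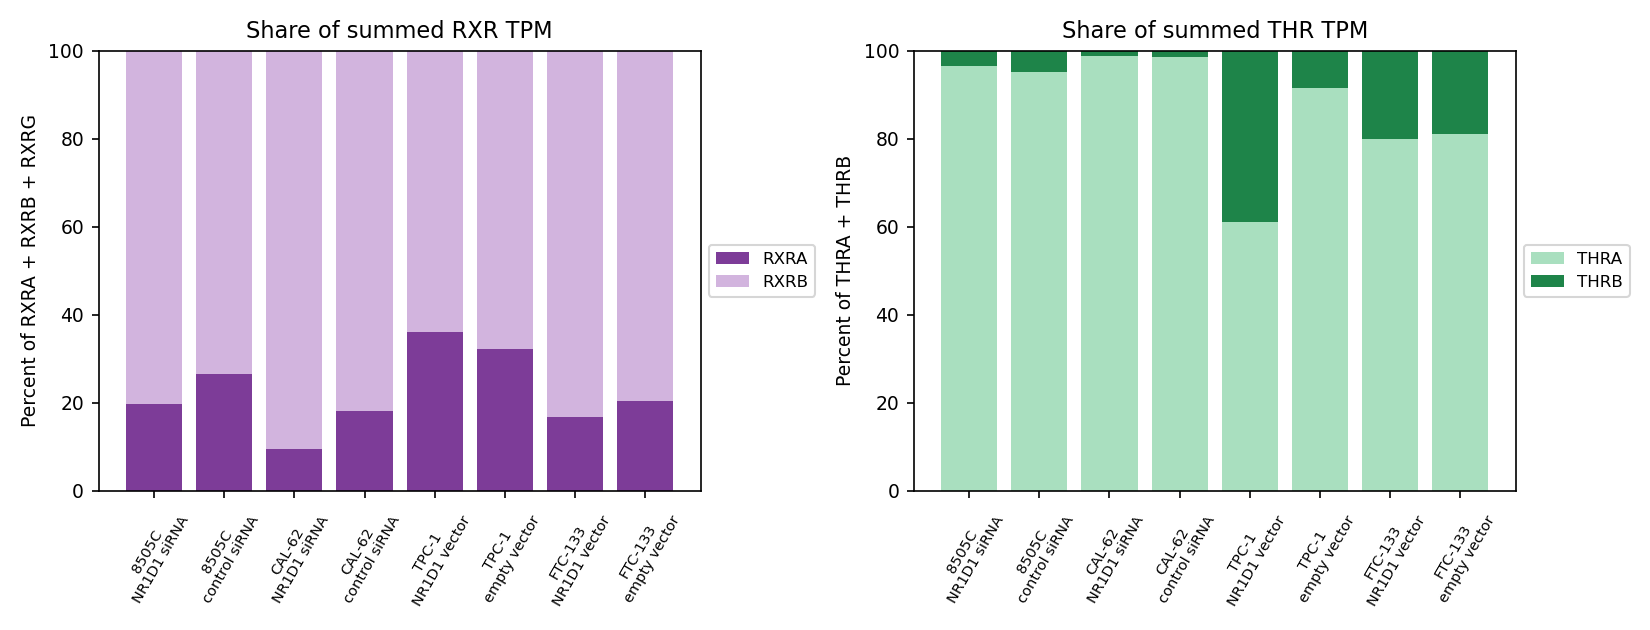
Share of RXRA and RXRB in the summed TPM of the RXR genes (left; RXRG was at 0) and of THRA and THRB in the summed TPM of the thyroid hormone receptor genes (right), in percent, for each library. RXRB makes up the larger RXR share in all 8 libraries, and THRB takes 39.0% of the receptor level with the NR1D1 vector in TPC-1.

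RXRA, on chromosome 9 at 134317098 to 134440585, was lower after NR1D1 siRNA in both lines and near its control level or slightly higher with the vector. RXRA was 13.7 TPM (792 reads) after NR1D1 siRNA and 19.4 TPM (938 reads) after control siRNA in 8505C (ratio 0.709, 95% interval 0.644 to 0.780). CAL-62 had 4.18 TPM (274 reads) after NR1D1 siRNA and 10.2 TPM (824 reads) after control siRNA (ratio 0.408, 0.355 to 0.469). The intervals of these ratios did not overlap, and both lay below 1. After scaling CAL-62 by the trimmed mean of log ratios its RXRA ratio was 0.553 (0.480 to 0.6341), which is not a 2-fold difference. With the same scaling the 8505C ratio was 0.696 (0.6327 to 0.766), so the intervals of the siRNA lines then overlapped slightly.

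With the vectors RXRA was 29.4 TPM (1934 reads) with the NR1D1 vector and 25.6 TPM (1681 reads) with the empty vector in TPC-1 (ratio 1.15, 1.07 to 1.23). FTC-133 had 13.7 TPM (630 reads) with the NR1D1 vector and 12.8 TPM (621 reads) with the empty vector, and its interval spanned 1 (ratio 1.07, 0.954 to 1.19). RXRA was therefore on the same side as NR1D1 in all 4 lines, although in FTC-133 by less than counting error. THRB had the same order, by less than counting error in every line except TPC-1. This order of the libraries was shared by 1101 of 17595 genes, 6.26%, and 616 genes, 3.5%, had at least the smallest RXRA difference in every line. No member had the opposite order, which was seen in 3.83% of genes.

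RXRB, on chromosome 6 at 33193588 to 33200688, was the most abundant RXR gene in every library. RXRB was 55.9 TPM (1127 reads) after NR1D1 siRNA and 53.8 TPM (910 reads) after control siRNA in 8505C (ratio 1.04, 95% interval 0.952 to 1.14). CAL-62 had 39.7 TPM (910 reads) after NR1D1 siRNA and 46.2 TPM (1300 reads) after control siRNA. That ratio of 0.860 (0.789 to 0.937) turned to 1.16 (1.07 to 1.27) after scaling by the trimmed mean of log ratios. TPC-1 had 52.3 TPM (1205 reads) with the NR1D1 vector and 54.0 TPM (1242 reads) with the empty vector (ratio 0.969, 0.894 to 1.05). FTC-133 differed from the other vector line: RXRB was 68.0 TPM (1097 reads) with the NR1D1 vector and 50.1 TPM (851 reads) with the empty vector (ratio 1.36, 1.24 to 1.49).

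The makeup of the RXR genes differed accordingly. RXRA made up 19.7% of the summed RXR level after NR1D1 siRNA and 26.5% after control siRNA in 8505C, and 9.53% after NR1D1 siRNA and 18.2% after control siRNA in CAL-62. It made up 36.0% with the NR1D1 vector and 32.1% with the empty vector in TPC-1, and 16.7% with the NR1D1 vector and 20.3% with the empty vector in FTC-133. The RXRA share does not depend on how a library is scaled. RXRG, which is restricted to few tissues such as muscle and parts of the brain, had 0 reads in all 8 libraries, and the level of 3 reads, taken as the limit that a count of 0 allows, was 0.155 to 0.270 TPM in them. The summed RXR level was 1.95 to 7.78 times the summed THRA and THRB level in treated libraries and 1.498 to 8.43 times in control libraries, with the highest values in CAL-62.

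KLF9, on chromosome 9 at 70384597 to 70414624, was higher in the treated library of all 4 lines, whichever way NR1D1 had been moved. KLF9 was 134.8 TPM (3587 reads) after NR1D1 siRNA and 98.5 TPM (2200 reads) after control siRNA in 8505C (ratio 1.37, 95% interval 1.30 to 1.44). CAL-62 had 22.3 TPM (676 reads) after NR1D1 siRNA and 18.5 TPM (689 reads) after control siRNA. That ratio of 1.21 (1.08 to 1.34) was 1.63 (1.46 to 1.82) after scaling by the trimmed mean of log ratios. These siRNA lines were those in which NR1D1 was lower.

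With the vectors the KLF9 ratios were larger, a difference between approaches that was not tested. KLF9 was 8.09 TPM (246 reads) with the NR1D1 vector and 4.48 TPM (136 reads) with the empty vector in TPC-1 (ratio 1.81, 1.46 to 2.24). FTC-133 had 61.6 TPM (1312 reads) with the NR1D1 vector and 34.1 TPM (765 reads) with the empty vector (ratio 1.80, 1.65 to 1.98). No interval reached 1, and no ratio reached 2-fold. After scaling by the trimmed mean of log ratios the ratio was 1.88 (1.52 to 2.34) in TPC-1 and 1.73 (1.58 to 1.89) in FTC-133. Both of those intervals overlapped the CAL-62 interval under that scaling, 1.46 to 1.82. A treated library above its control in all 4 lines was seen in 1193 of 17595 genes, 6.78%, and 314 genes, 1.78%, had at least the smallest KLF9 difference in every line. Lower values in all 4 treated libraries were seen in 8.75% of genes.

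**Figure D3:**
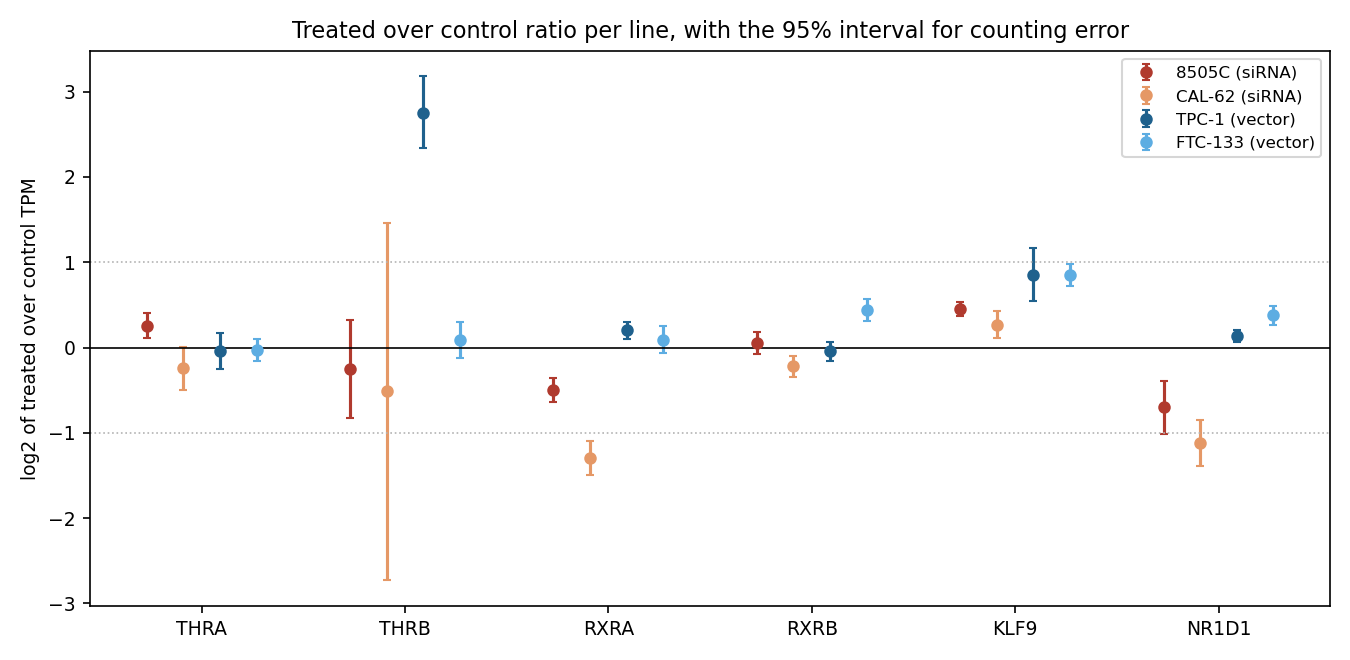
Ratio of treated to control TPM in each line for 5 members and NR1D1, on a log2 axis with exact 95% intervals for counting error; dotted lines mark 2-fold. siRNA lines are in red shades and vector lines in blue shades. KLF9 lies above 0 in all 4 lines, RXRA lies below 0 in the siRNA lines, and THRB in TPC-1 stands at a ratio of 6.74.

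Few members passed 2-fold on the log2(TPM + 1) scale. In 8505C none of 5 counted members did, where 11.9% of genes were higher and 5.86% lower by 2-fold. In CAL-62 RXRA was lower by 2-fold among 4 counted members, where 5.30% of genes were higher and 10.7% lower. Scaling CAL-62 by the trimmed mean of log ratios turned its split round, with 2331 genes higher and 886 lower against 861 higher and 1729 lower before. In TPC-1 THRB was higher by 2-fold among 5 counted members, where 6.28% of genes were higher and 5.25% lower. In FTC-133 none of 5 counted members passed, where 9.76% of genes were higher and 6.91% lower.

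Over lines, no member passed limma with Benjamini-Hochberg adjustment over 17595 genes, and neither did any other gene (0% called in each direction). Each line counted as 1 observation, so these p-values rest on the spread between lines and not between repeats within a line. limma moderates that spread toward the spread of genes at a similar level. Of all genes 2114 had an unadjusted limma p under 0.05 for siRNA, 784 for the vector and 720 for the 4-line difference of NR1D1-higher minus NR1D1-lower libraries. Among the members RXRA had such a p for siRNA and KLF9 for the vector. RXRA lost it when any of the 4 lines was left out, and KLF9 when TPC-1 or FTC-133 was. KLF9 also had it for siRNA under trimmed-mean scaling or without mitochondrial genes, with a log2 change of 0.55 under each. The siRNA and vector changes rest on 2 lines each, and their SE comes from a spread pooled over all 4 lines and moderated in that way. The limma log2 change of RXRA after siRNA was -0.79 ± 0.295 (SE, 2 lines, adjusted p = 0.374). That of KLF9 with the vector was 0.78 ± 0.26 (SE, 2 lines, adjusted p = 1).

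KLF9 after siRNA had a limma log2 change of 0.35 ± 0.26 (adjusted p = 0.61), higher in 2 of 2 lines. THRB with the vector had 0.98 ± 0.483 (limma adjusted p = 1), higher in 2 of 2 lines, and that mean joined log2 differences of 1.88 in TPC-1 and 0.08 in FTC-133. For THRA and RXRB the limma adjusted p was 0.998 and 0.947 for siRNA and 1 for the vector. In the 4-line difference oriented by NR1D1, limma gave RXRA 0.47 ± 0.244 on the log2 scale (SE, adjusted p = 0.938), THRB 0.53 ± 0.365 (adjusted p = 0.938) and NR1D1 0.55 ± 0.227 (adjusted p = 0.938). A fit of treated over control in all 4 lines was added once KLF9 had been seen to be higher in each, and there limma gave KLF9 0.57 ± 0.192 (SE, higher in 4 of 4 lines, adjusted p = 0.625).

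Genes that bring thyroid hormone into cells or convert it were listed as 12, of which 4 had a mean of at least 1 TPM. None was called by limma in any comparison. SECISBP2, which is needed to make the selenocysteine-containing deiodinases, was lower by 2-fold in both siRNA lines. In CAL-62 its log2 difference was -1.055, where the median of all genes was -0.28, so the 2-fold call there depends on scaling. SECISBP2 was 11.1 TPM after NR1D1 siRNA and 29.7 TPM after control siRNA in 8505C, 10.9 TPM after NR1D1 siRNA and 23.7 TPM after control siRNA in CAL-62, 12.5 TPM with the NR1D1 vector and 11.7 TPM with the empty vector in TPC-1, and 13.2 TPM with the NR1D1 vector and 14.8 TPM with the empty vector in FTC-133. Its limma adjusted p was 0.277 for siRNA. The deiodinase genes were low: DIO1 reached at most 0.810 TPM, DIO3 reached at most 0.162 TPM, and DIO2 was 0.337 TPM after NR1D1 siRNA against 2.38 TPM after control siRNA in 8505C.

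Receptor cofactors all had a mean of at least 1 TPM, and limma called none. Of the coactivators 2 of 9 counted were lower by 2-fold in 8505C and 1 of 8 in CAL-62, where 5.86% and 10.7% of all genes were, and none passed 2-fold in TPC-1 or FTC-133. On the log2 scale the coactivators had a median of -0.24 in 8505C and -0.40 in CAL-62, where the median of all genes was 0.05 and -0.28. MED1, the Mediator subunit that binds hormone-occupied receptors, was 31.0 TPM after NR1D1 siRNA and 64.6 TPM after control siRNA in 8505C, 15.4 TPM after NR1D1 siRNA and 41.5 TPM after control siRNA in CAL-62, 65.5 TPM with the NR1D1 vector and 78.3 TPM with the empty vector in TPC-1, and 36.0 TPM with the NR1D1 vector and 33.6 TPM with the empty vector in FTC-133. In CAL-62 the log2 difference of MED1 was -1.371, beside that median of -0.28, so its 2-fold call there may depend on scaling. Its limma adjusted p was 0.273 for siRNA. The median log2 difference of the corepressors was 0.26 over 6 counted in 8505C and -0.31 over 7 in CAL-62. TBL1XR1 was 114.1 TPM with the NR1D1 vector and 78.2 TPM with the empty vector in TPC-1, and SIN3A was 28.1 TPM with the NR1D1 vector and 19.5 TPM with the empty vector in FTC-133. Both were lower in the treated library of every other line. The log2 differences of TBL1XR1 were -0.55 in 8505C, -0.54 in CAL-62 and -0.45 in FTC-133. Those of SIN3A were -0.295 in 8505C, -0.69 in CAL-62 and -0.13 in TPC-1.

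Of 14 other receptors that pair with RXR 12 had a mean of at least 1 TPM and limma called none. None passed 2-fold in 8505C or TPC-1. In CAL-62 1 of 9 counted was higher, against 5.30% of all genes, and in FTC-133 1 of 12 was higher and 1 lower, against 9.76% and 6.91% of all genes. PPARA, a fatty acid receptor, had the same order of libraries as RXRA: it was 11.8 TPM after NR1D1 siRNA and 22.2 TPM after control siRNA in 8505C, 6.39 TPM after NR1D1 siRNA and 10.6 TPM after control siRNA in CAL-62, 25.3 TPM with the NR1D1 vector and 17.2 TPM with the empty vector in TPC-1, and 28.3 TPM with the NR1D1 vector and 21.0 TPM with the empty vector in FTC-133. The limma adjusted p of its 4-line difference was 0.938. RARB, a retinoic acid receptor and itself a retinoic acid target, was 87.7 TPM after NR1D1 siRNA and 78.6 TPM after control siRNA in 8505C, and 11.3 TPM with the NR1D1 vector and 3.12 TPM with the empty vector in FTC-133. RARB stayed at or under 0.185 TPM in CAL-62 and TPC-1.

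Thyroid hormone targets other than KLF9 showed no common direction across the lines. Of 18 targets 10 had a mean of at least 1 TPM, and none was called by limma. By 2-fold 1 of 11 counted was higher in 8505C, 1 of 9 in CAL-62 and 1 of 9 in FTC-133, against 11.9%, 5.30% and 9.76% of all genes. The list median on the log2 scale was 0.53 in 8505C, -0.29 in CAL-62, 0.17 in TPC-1 and 0.14 in FTC-133, where the median of all genes was 0.05, -0.28, -0.02 and 0.05. NRGN, a brain target of thyroid hormone, was 36.2 TPM after NR1D1 siRNA and 13.6 TPM after control siRNA in 8505C but 4.23 TPM after NR1D1 siRNA and 9.07 TPM after control siRNA in CAL-62. In FTC-133 NRGN was 1.80 TPM with the NR1D1 vector and 0.190 TPM with the empty vector. Its log2 difference in TPC-1 was 0.17. SLC2A1, the glucose transporter GLUT1, was 126.6 TPM after NR1D1 siRNA and 62.2 TPM after control siRNA in CAL-62 and 261.2 TPM with the NR1D1 vector and 117.5 TPM with the empty vector in FTC-133. Its log2 differences were smaller elsewhere, at -0.16 in 8505C and 0.21 in TPC-1.

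Targets of retinoic acid and of other receptors that share RXR were often higher after NR1D1 siRNA in 8505C. Of 10 such genes counted in 8505C, 5 were higher by 2-fold, against 11.9% of all genes, and their median log2 difference was 1. In CAL-62 2 of 10 were higher, against 5.30% of genes, in TPC-1 1 of 9 was higher and 1 lower, against 6.28% and 5.25%, and in FTC-133 4 of 12 were higher and 2 lower, against 9.76% and 6.91%. TGM2, transglutaminase 2 and a retinoic acid target, was higher in all 4 lines. TGM2 was 516.5 TPM after NR1D1 siRNA and 161.8 TPM after control siRNA in 8505C, 319.3 TPM after NR1D1 siRNA and 149 TPM after control siRNA in CAL-62, 648.3 TPM with the NR1D1 vector and 412.7 TPM with the empty vector in TPC-1, and 289.6 TPM with the NR1D1 vector and 108.9 TPM with the empty vector in FTC-133. Its limma adjusted p was 0.277 for siRNA and 0.926 for the vector. ABCA1, a cholesterol exporter and LXR target named after its values were seen, was lower in all 4 treated libraries, with log2 differences of -0.27 in 8505C, -0.36 in CAL-62, -0.49 in TPC-1 and -0.57 in FTC-133. Its limma adjusted p was 0.657 for siRNA and 1 for the vector. Over the 16 genes of the list limma called none.

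**Figure D4:**
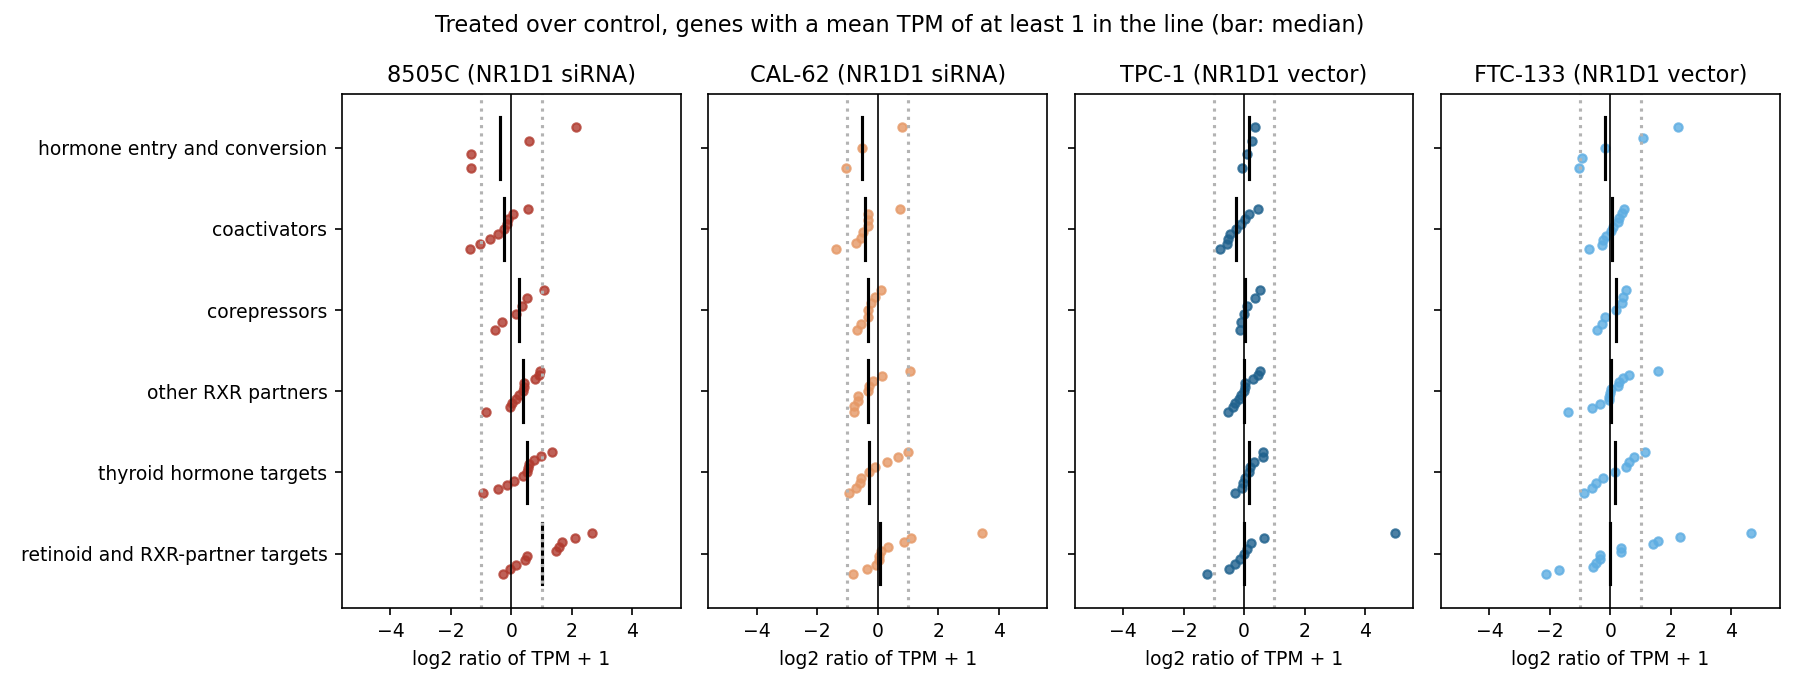
Log2 ratio of treated to control TPM + 1 for genes of 6 lists in each line, 1 point per gene with a mean of at least 1 TPM in that line. Black bars are list medians and dotted lines mark 2-fold. Retinoid and RXR-partner targets in 8505C have a median of 1, and the other list medians lie within 2-fold in every line.

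Genes whose levels over the 8 libraries were most like a member's were looked up among 10054 to 10055 genes with a mean of at least 5 TPM. The libraries come in pairs from the same line, so they are not independent and the likeness is a description. THRA was most like HYAL2 (Pearson r of log2(TPM + 1) 0.997 over 8 libraries), ADSS1 (0.987) and GNAI2 (0.984). THRB was most like DNMT3B (0.98), ADAMTS5 (0.963) and QPCTL (0.958). RXRA was most like CTBP2 (0.996), RNF2 (0.991) and UCHL5 (0.986), RXRB was most like ARHGEF10L (0.957), ELK1 (0.953) and PRXL2B (0.945), and BMERB1 (0.987) and C15orf48 (0.983) were among the 3 genes most like KLF9. Among the members themselves r was 0.713 for THRA and RXRB, 0.645 for THRA and THRB and -0.256 for RXRA and KLF9.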

How the data were processed

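RNA was extracted with Trizol (integrity number at least 6.8) and sequenced on Illumina libraries, per the labels' protocols. FastQC, MultiQC, Trimmomatic 0.38, featureCounts 2.0.0 and build GRCh38 are named in the submitters' processing notes; the aligner, annotation release and strand setting are not given in the sources used here. Values deposited by the authors for 8505C and CAL-62 were TPM summing to 1000000 per column. Those for TPC-1 and FTC-133, named TPM by the authors, summed to 253330.3 to 261469.4, and value times GENCODE 29 exon length summed to 1.001 to 1.005 times the FPKM total, so these deposited values were read as FPKM. All columns were rescaled to 1000000.

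Of 58884 identifiers 58472 had a symbol. Reads were recovered as value times length: 72.16% to 74.63% of nonzero values were whole within 0.02, too few for a count test, but the members were whole in every library with GENCODE 29 lengths (RXRA with 11208 in place of 11083 bases, NR1D1 with 2630 in place of 2772). The RXRA and NR1D1 lengths were picked as the shortest that gave whole reads in every library, so whole reads are no separate check of those counts. Intervals are exact Poisson (levels) and exact binomial (ratios). limma 3.58.1 in R 4.3.3, with trend and a cell line term, was fitted to log2(TPM + 1) for 17595 genes with a mean of at least 1 TPM, threshold 0.05 after Benjamini-Hochberg adjustment, and checked on simulated data. Libraries were paired by their shared cell line. A 2-fold call within a line used log2(TPM + 1) and a mean of at least 1 TPM in that line, and carries no test. Members and lists were chosen with earlier results of these data known. Besides the members and NR1D1, genes were named where they passed 2-fold the same way in both lines of an approach, or else as the 2 of a list with the largest mean absolute log2 ratio, unless stated; likeness gave 3 genes per member. Alternatives were another pseudocount, other filters, trimmed-mean scaling, removal of mitochondrial genes, leaving out each line and a fit without the line term. RefSeq promoter windows were found for all 6 members. Labels gave no batch; the table format and the approach fall together. A few genes that these rules name are not reported here.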

Additional observations from a re-analysis of the deposited data

How the results depend on the processing

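No gene was called by limma for the siRNA, vector or 4-line comparison under any setting run except a stricter filter, and the fits that left out a line ran from 0 to 0 calls. Restricting the fit to genes with a mean of at least 5 TPM gave 77 calls for siRNA and 7 for the vector; THRB was too low to enter that fit and no other member was among the calls, the lowest adjusted p of a member over all settings being 0.249 for RXRA and 0.312 for KLF9 after siRNA and 0.672 for KLF9 with the vector. Without the replicate block, that is without pairing the libraries by cell line, 0 genes were called, and 160, 100 and 87 had an unadjusted p under 0.05 for the siRNA, vector and 4-line comparison. RXRB after siRNA reversed to a log2 change of 0.122 with trimmed-mean scaling, 0.117 without mitochondrial genes and 0.055 without CAL-62, and its siRNA range over left-out lines was -0.213 to 0.055. RXRB with the vector ran from -0.0451 (without FTC-133) to 0.432 (without TPC-1). THRA ran from -0.209 (without 8505C) to 0.248 (without CAL-62) for siRNA and from -0.103 (without CAL-62) to 0.0492 (without 8505C) for the 4-line difference. Set as treated over control in all 4 lines, a choice made after seeing the data, RXRA turned to -0.326 and NR1D1 to -0.297, because the siRNA lines change sign by construction.

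Within CAL-62 the log2 ratios under trimmed-mean scaling and without mitochondrial genes were 0.174 and 0.159 for THRA, -0.777 and -0.832 for RXRA, 0.215 and 0.192 for RXRB and 0.683 and 0.669 for KLF9. THRB in TPC-1 was 2.62 with a pseudocount of 0.1 and 1.05 in the columns as deposited, which are smaller numbers beside the same pseudocount. Control levels as deposited, FPKM against TPM, gave FTC-133 over CAL-62 as 1.35 for THRA and 23.36 for THRB, TPC-1 over CAL-62 as 0.633 for RXRA and 0.2964 for RXRB, and 8505C over TPC-1 as 86.75 for KLF9. Without mitochondrial genes those of THRA, RXRA and RXRB were 2.673, 1.294 and 0.606. Genes past 2-fold at a mean of at least 5 TPM numbered 991 higher and 408 lower in 8505C, 291 and 1127 in CAL-62, 373 and 319 in TPC-1 and 585 and 395 in FTC-133, and trimmed-mean scaling gave 2331 and 886 in CAL-62. Depth limits THRB in CAL-62 most, at 4 and 7 reads.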

Other observations

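Other genes that glucocorticoids induce, as they do KLF9, were listed as 6, of which 5 had a mean of at least 1 TPM and limma called none. TSC22D3, the glucocorticoid-induced leucine zipper, was on the same side as KLF9 in all 4 lines: it was 22.9 TPM after NR1D1 siRNA and 10.1 TPM after control siRNA in 8505C, 11.4 TPM after NR1D1 siRNA and 6.57 TPM after control siRNA in CAL-62, 12.8 TPM with the NR1D1 vector and 5.87 TPM with the empty vector in TPC-1, and 232 TPM with the NR1D1 vector and 188.9 TPM with the empty vector in FTC-133. Its limma adjusted p was 0.345 for siRNA and 1 for the vector. SGK1, a kinase of the same group, was 4.26 TPM after NR1D1 siRNA and 19.8 TPM after control siRNA in CAL-62, and 47.6 TPM after NR1D1 siRNA and 63.1 TPM after control siRNA in 8505C. FKBP5, named after its values were seen, was 10.1 TPM after NR1D1 siRNA and 20.5 TPM after control siRNA in 8505C, and 5.16 TPM after NR1D1 siRNA and 15.8 TPM after control siRNA in CAL-62. ZBTB16 was at 0 in all libraries.

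Of 14 other KLF and SP factors 13 had a mean of at least 1 TPM and limma called none. KLF2 was, with KLF9, higher in all 4 treated libraries: it was 5.49 TPM after NR1D1 siRNA and 1.38 TPM after control siRNA in 8505C, 5.17 TPM after NR1D1 siRNA and 3.93 TPM after control siRNA in CAL-62, 25.4 TPM with the NR1D1 vector and 16.3 TPM with the empty vector in TPC-1, and 7.34 TPM with the NR1D1 vector and 4.69 TPM with the empty vector in FTC-133. KLF16 was 2.54 TPM after NR1D1 siRNA and 7.37 TPM after control siRNA in CAL-62 and 44.4 TPM with the NR1D1 vector and 79.2 TPM with the empty vector in TPC-1. In 8505C KLF16 was higher, at 17.1 TPM after NR1D1 siRNA and 13.1 TPM after control siRNA. Its log2 difference in FTC-133 was -0.06. Of the thyroid factors, HHEX was 43.4 TPM after NR1D1 siRNA and 68.2 TPM after control siRNA in CAL-62, and FOXE1 was 1.73 TPM after NR1D1 siRNA and 0.643 TPM after control siRNA in that line. HHEX had log2 differences of -0.57 in 8505C, -0.48 in TPC-1 and -0.03 in FTC-133. In TPC-1 FOXE1 was 23.1 TPM with the NR1D1 vector and 13.2 TPM with the empty vector. FOXE1 stayed at or under 0.467 TPM in 8505C and FTC-133. The fibroblast marker DCN was 0.987 TPM with the NR1D1 vector and 4.42 TPM with the empty vector in FTC-133, and the endothelial marker TIE1 was 19.2 TPM with the NR1D1 vector and 2.27 TPM with the empty vector in that line.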
